A study of Mus musculus with 24 samples.

Results

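Glucagon is the hormone of the pancreatic alpha cell, and its gene Gcg was followed here in mouse islets together with 4 other genes used as marks of that cell: Ttr, Irx1, Irx2 and Pou3f4. The members were taken by gene name from the array annotation, which gave 5 of 34797 gene names and 6 of 55681 probes, with 2 probes for Irx2 and 1 for each other gene. Of the 5 genes, 4 were well above background and were tested, and Pou3f4 was not well above background on any of the 24 arrays.

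Alpha cells release glucagon when blood glucose is low, and glucagon raises hepatic glucose output, so the hormone opposes insulin. Gcg encodes the prohormone, which is cut to glucagon in alpha cells and to other peptides in gut cells. Ttr encodes transthyretin, a secreted carrier of thyroid hormone and of retinol-binding protein, made mainly in liver and choroid plexus and also in alpha cells. Irx1 and Irx2 are Iroquois homeobox transcription factors that lie close together on the same chromosome and are enriched in alpha cells of the adult mouse islet. Pou3f4, also called Brn4, is a POU-domain factor that binds the Gcg promoter and is made in alpha cells of the developing pancreas.

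Islets were compared between 2 inbred strains of mice, C57BLKs/J (BLKS) and C57BL6/J (BL6), on 3 diets, with the question of how the strains differ on a high-fat diet. All mice were male and 8 weeks old at the start. The groups were BLKS on high-fat diet with pioglitazone, BLKS on high-fat diet, BLKS on chow, BL6 on high-fat diet with pioglitazone, BL6 on high-fat diet and BL6 on chow, with 4 mice in each and 1 single-colour Agilent array per mouse. Chow had 18% and the high-fat diet 42% of kcal from fat, and pioglitazone, a thiazolidinedione drug that activates PPAR-gamma, was mixed into the high-fat diet at 140 mg per kg. The sample labels give 12 weeks of feeding and the series' design text gives 16 weeks. The titles name separate mice, so p-values measure the spread between mice.

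The probes show what part of each transcript was read. Coordinates are those of the array files on mm9, and exon and UTR positions of that build were not used here. The Gcg probe lies at chr2:62312685-62312744 on the minus strand and was printed 10 times on each array. The Irx1 probe is at chr13:72095735-72095794 on the minus strand. The brighter Irx2 probe is at chr13:72771499-72771558 and the dimmer one at chr13:72768784-72768843, both on the plus strand, and the distance between the Irx1 probe and the brighter Irx2 probe is 0.676 Mb. The Pou3f4 probe is at chrX:108010778-108010837 on the plus strand. The sequence of the Ttr probe is not shown. The 5′ ends of the Gcg, Irx1 and brighter Irx2 probes (30 of 60 bases) and the whole dimmer Irx2 and Pou3f4 probes are given 5′ to 3′ in lower case, because the 2 Irx2 probes gave different results and the Pou3f4 probe gave no signal.
Gcg: gtcacaacacctggattatactaacagaag
Irx1: ctttgtttcttttttcccctttctgtatat
Irx2, brighter probe: gatacctacggttccagtttattcacatag
Irx2, dimmer probe: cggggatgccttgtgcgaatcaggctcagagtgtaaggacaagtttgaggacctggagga
Pou3f4: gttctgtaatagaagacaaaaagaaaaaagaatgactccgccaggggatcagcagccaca
The 2 Irx2 probes do not overlap and differ in base composition, with 35.0% G and C in the brighter and 55.0% in the dimmer.

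Values are log2 processed intensities minus the 75th percentile of the same array, called levels here, and are compared only within a probe. A difference was called when its p-value from limma, adjusted over all 22975 genes tested, was under 0.05, and errors of differences are standard errors (SE). The 75th percentile ranged from 245.0 to 458.7 intensity units over the arrays, and no spot was saturated. The strains differed widely: averaged over diets, 64.9% of all genes tested were called, 35.4% lower and 29.5% higher in BLKS islets, and the median difference of all genes was -0.06. The direction of those calls moved with the scaling. Of the called genes, 45.5% were higher in BLKS islets after scaling by the 75th percentile, 57.8% relative to a list of 12 genes shared by endocrine cells and 67.5% with no scaling between arrays, which moved the median of all genes to 0.15. Since whole islets were measured, fewer alpha cells and less RNA per alpha cell cannot be told apart.

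In BLKS islets, Ttr, Irx1 and Irx2 were lower than in BL6 islets, and Gcg was not called different. Averaged over the 3 diets, Ttr was 1.91-fold, Irx1 2.20-fold and Irx2, by its brighter probe, 2.48-fold lower in BLKS islets. The dimmer Irx2 probe gave an averaged log2 difference of -0.52 (adjusted p = 0.0689), which was not called. It was -0.73 (adjusted p = 0.00042) without the 1 array on which it was not well above background, a choice made after seeing the data. That BL6 array held the probe's lowest level, so leaving it out had to widen the difference. The difference in Gcg was -0.17 ± 0.08 (SE) on the log2 scale, with a 95% interval from -0.33 to -0.01 and an adjusted p of 0.0655. Thus 3 of the 4 members tested were called lower, against 35.4% of all genes. The medians were -1.03 over the 4 members and -0.06 over all genes.

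**Figure D1:**
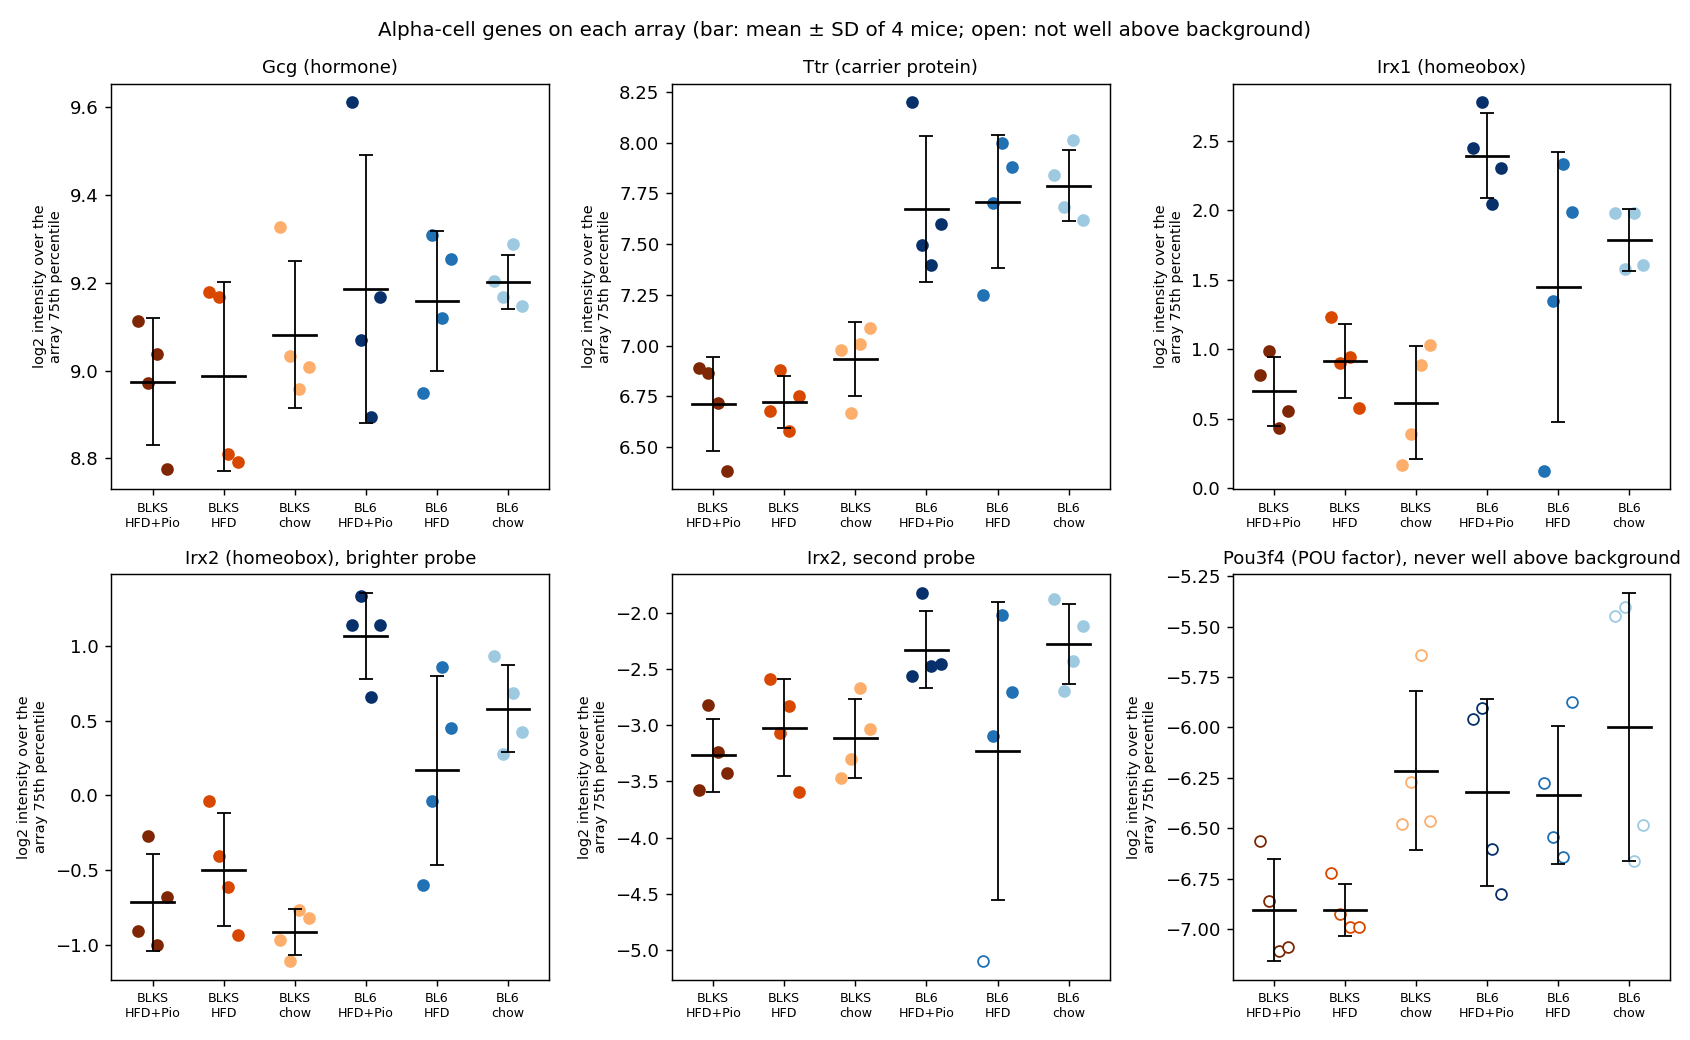
Level of each probe on each of the 24 arrays, as log2 intensity over the array's 75th percentile, by group; bars give the mean and SD of 4 mice, and open points were not well above background. Ttr of the 12 BLKS arrays (6.38 to 7.08) lay below that of the 12 BL6 arrays (7.25 to 8.20), while Gcg overlapped in the 2 strains.

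Gcg, the glucagon gene, had levels of 9.11, 8.97, 9.04 and 8.78 in BLKS islets on high-fat diet with pioglitazone, 9.18, 9.17, 8.81 and 8.79 on high-fat diet and 9.33, 9.03, 8.96 and 9.01 on chow. In BL6 islets it had 9.61, 9.07, 8.89 and 9.17 with pioglitazone, 8.95, 9.31, 9.12 and 9.25 on high-fat diet and 9.20, 9.17, 9.29 and 9.15 on chow. The 2 strains overlapped on each diet, and BL6 on chow was the tightest group (SD 0.06). Within diets, the BLKS minus BL6 difference was -0.21 with pioglitazone (adjusted p = 0.211), -0.17 on high-fat diet (adjusted p = 0.310) and -0.12 on chow (adjusted p = 0.508).

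The scale of the Gcg probe bears on that result. Its raw intensity averaged between 149820 and 220715 units per array, ranking 7th to 24th from the top of all probes on its array, and the scanner's saturation value was at least 776544. Before scaling, Gcg spread over the 24 arrays by an SD of 0.10 on the log2 scale, less than the 75th percentile used to scale it (SD 0.20), and after scaling its SD was 0.19. The same held for Ins1, an insulin gene and one of the brightest, with an SD of 0.09 before and 0.23 after scaling. With no scaling between arrays the strain difference of Gcg averaged over diets was 0.04 (adjusted p = 0.544), so its sign depended on the scaling. Relative to the endocrine list it was -0.05 (adjusted p = 0.477). Whether the probe's response is proportional at this brightness was not tested.

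Ttr, the transthyretin gene, was read by a probe on chromosome 18 from 20828519 to 20828577 (mm9, plus strand). It had levels of 6.89, 6.86, 6.72 and 6.38 in BLKS islets on high-fat diet with pioglitazone, 6.68, 6.88, 6.58 and 6.75 on high-fat diet and 6.98, 6.67, 7.01 and 7.08 on chow. In BL6 islets it had 8.20, 7.50, 7.40 and 7.60 with pioglitazone, 7.25, 7.70, 8.00 and 7.88 on high-fat diet and 7.84, 7.68, 8.01 and 7.62 on chow. Every BLKS array was below every BL6 array, a separation that 8.72% of all genes showed in the same direction. The BLKS minus BL6 difference was -0.96 ± 0.17 with pioglitazone (adjusted p = 0.00012), -0.99 ± 0.17 on high-fat diet (adjusted p = 8.04e-05) and -0.85 ± 0.17 on chow (adjusted p = 0.00043). The separation of the strains was thus seen on all 3 diets for this member.

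Ttr is also abundant in liver, so 6 hepatocyte genes were set beside it. Of these, 5 were measured, with 2 called higher and 2 called lower in BLKS islets averaged over diets. The mean level of the list ran from -3.55 to -2.59 in BLKS arrays and from -4.88 to -1.41 in BL6 arrays, which overlap. Alb, the albumin gene, was well above background on 12 BLKS and 5 BL6 arrays and 1.61 higher in BLKS islets, opposite to Ttr, and Fgb, a fibrinogen gene, was 4.70 higher. Tat, a tyrosine aminotransferase gene, was lower at -1.12. Apob, an apolipoprotein gene, was also called lower and was well above background on 0 BLKS and 5 BL6 arrays. Their part in the Ttr result was not tested.

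Irx1 had levels of 0.81, 0.99, 0.43 and 0.55 in BLKS islets on high-fat diet with pioglitazone, 1.23, 0.90, 0.94 and 0.58 on high-fat diet and 0.17, 0.39, 0.88 and 1.03 on chow. In BL6 islets it had 2.45, 2.78, 2.04 and 2.31 with pioglitazone, 0.13, 1.35, 2.34 and 1.99 on high-fat diet and 1.98, 1.58, 1.98 and 1.61 on chow. The strains were apart with pioglitazone and on chow, and overlapped on high-fat diet, where mouse 1 of the BL6 group had the lowest level of all 24 arrays. The BLKS minus BL6 difference was -1.70 ± 0.33 with pioglitazone (adjusted p = 0.00023), -0.54 ± 0.33 on high-fat diet (adjusted p = 0.181) and -1.17 ± 0.33 on chow (adjusted p = 0.0065). Without that mouse the high-fat difference was -0.98 (adjusted p = 0.00275). Leaving out the lowest BL6 level had to widen the difference. It was the only 1 of 8 fits with a mouse left out that called Irx1 there, with differences from -0.98 to -0.24.

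Irx2, by its brighter probe, had levels of -0.90, -0.27, -0.996 and -0.68 in BLKS islets on high-fat diet with pioglitazone, -0.04, -0.40, -0.61 and -0.93 on high-fat diet and -0.96, -1.11, -0.76 and -0.82 on chow. In BL6 islets it had 1.14, 1.33, 0.65 and 1.14 with pioglitazone, -0.60, -0.04, 0.86 and 0.45 on high-fat diet and 0.93, 0.27, 0.69 and 0.43 on chow. As for Irx1, the strains were apart with pioglitazone and on chow and overlapped on high-fat diet. The BLKS minus BL6 difference was -1.78 ± 0.25 with pioglitazone (adjusted p = 8.46e-06), -0.66 ± 0.25 on high-fat diet (adjusted p = 0.0352) and -1.49 ± 0.25 on chow (adjusted p = 6.98e-05). The averaged difference of -1.31 was lower than that of all but 4.27% of the genes tested. The call on high-fat diet did not hold in 4 of 8 fits with 1 mouse left out: without BL6 mouse 3 or 4 (adjusted p = 0.156 and 0.0966) and without BLKS mouse 3 or 4 (adjusted p = 0.0742 and 0.121).

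The dimmer Irx2 probe gave smaller differences, none of which was called within a diet. It was -0.94 with pioglitazone (adjusted p = 0.0793), 0.21 on high-fat diet (adjusted p = 0.714) and -0.84 on chow (adjusted p = 0.125). Its levels on high-fat diet were -2.59, -3.07, -2.83 and -3.60 in BLKS islets and -5.10, -3.09, -2.01 and -2.71 in BL6 islets. The value of -5.10 belongs to BL6 mouse 1, the only array on which this probe was not well above background. Without that array, a choice made after seeing the data, the high-fat difference was -0.42 (adjusted p = 0.248). The sign opposite to that of the brighter probe thus rested on that array. Over the 24 arrays the 2 Irx2 probes followed each other with a Pearson r of 0.72 and a Spearman rho of 0.84, given as a description.

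Pou3f4 gave no measured level. Its probe read between -7.11 and -5.64 in BLKS arrays and between -6.82 and -5.41 in BL6 arrays, not well above background on any of them, and no fold is given. Among the members it is the one whose role in alpha cells is known mainly from development.

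Counting by diet, the strain comparison called 3 of the 4 members lower with pioglitazone, against 22.8% of all genes. It called 2 lower on high-fat diet, against 27.3%, and 3 on chow, against 22.0%. Groups that did not overlap were found for 3 members with pioglitazone (18.1% of all genes in that direction), for Ttr alone on high-fat diet (21.4%) and for 3 members on chow (25.8%). On high-fat diet the members' count was thus the lowest of the 3 diets. The share of all genes called in either direction was the highest there, at 50.1%, against 45.8% with pioglitazone and 41.6% on chow. That count of members moved with single arrays and settings: the main fit included, it was 1 in 11 settings, 2 in 11 and 3 in 1. With pioglitazone and on chow it was 3 in all 23.

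**Figure D2:**
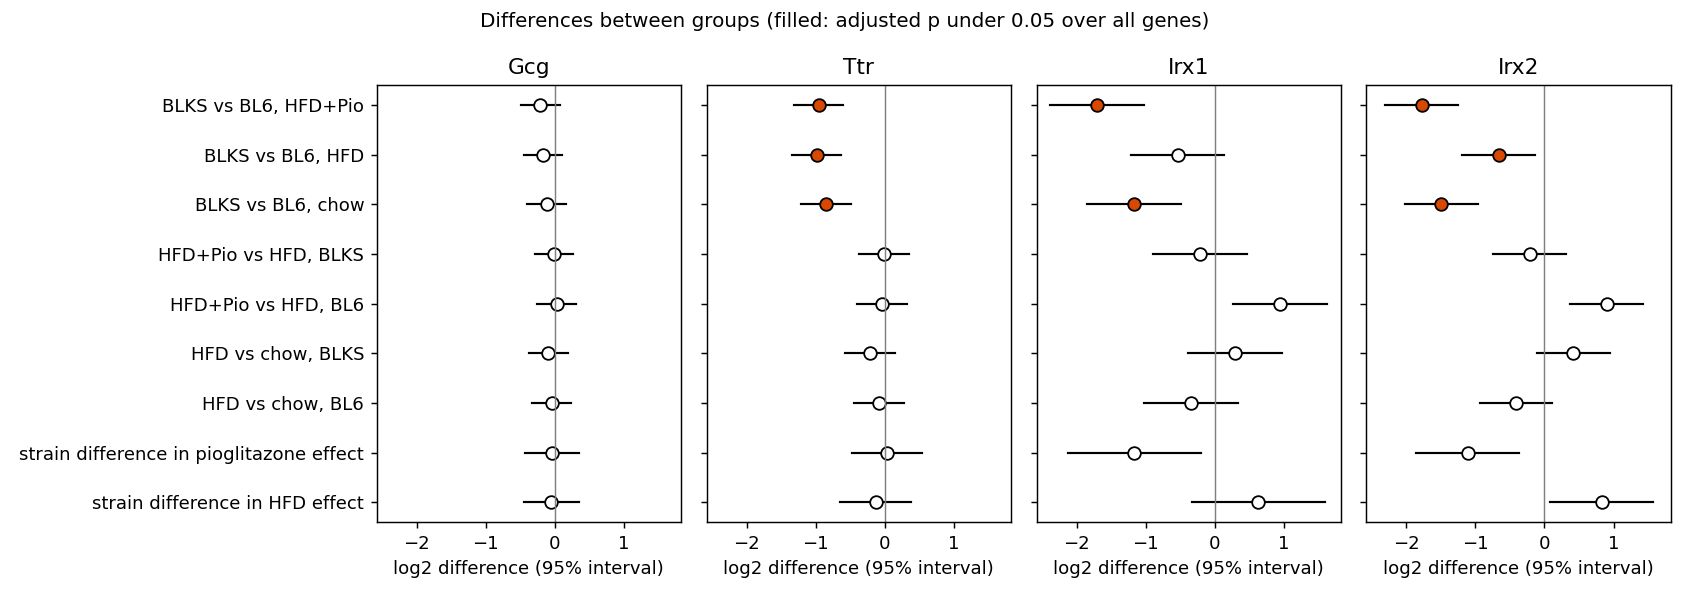
Log2 difference of each tested member in each comparison, with its 95% interval; filled points were called (adjusted p under 0.05 over all genes). Filled points appear only in the strain comparisons of Ttr, Irx1 and Irx2, and the Irx1 and Irx2 intervals for HFD+Pio against HFD in BL6 lie above 0 although neither difference was called.

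The strain difference was not equal among the members. Averaged over diets, the difference of Gcg was smaller than that of Ttr by 0.77 on the log2 scale, of Irx1 by 0.97 and of Irx2 by 1.14. An exact two-sided permutation test of the strain labels within each diet gave adjusted p = 3.5e-05, 0.000816 and 0.000105, adjusted over the 6 pairs of members. The test of the difference gave adjusted p = 0.0910 for Irx1 against Irx2, 0.29 for Irx1 against Ttr and 0.0534 for Irx2 against Ttr. These pairs differ in brightness, so the limits given for the Gcg probe hold here too.

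Diet alone called none of the 4 members in either strain, at unadjusted p-values of at least 0.114 with Irx2 read by its brighter probe. High-fat diet against chow gave Irx1 0.30 ± 0.33 in BLKS and -0.34 ± 0.33 in BL6 islets. Irx2 differed by 0.42 ± 0.25 in BLKS and by -0.41 ± 0.25 in BL6 islets. The dimmer Irx2 probe gave 0.09 in BLKS and -0.95 in BL6 islets, the latter at an unadjusted limma p of 0.0376 (adjusted p = 0.792). The BL6 high-fat group holds the array on which that probe was not well above background. Gcg differed by -0.09 and -0.04, and Ttr by -0.21 and -0.08, in BLKS and in BL6 islets. All genes called made up 0.0740% in BLKS and 0.0435% in BL6 islets, so few genes of any kind passed this comparison. The strain difference in the effect was 0.83 ± 0.36 for Irx2, with an unadjusted p of 0.0311 and an adjusted p of 0.541, and 0.63 ± 0.46 for Irx1 (adjusted p = 0.735). Without BL6 high-fat mouse 1 these were 0.58 and 0.19. Among all genes limma called 0 for this difference, with 1887 at an unadjusted p under 0.05.

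Pioglitazone on top of the high-fat diet called none of the 4 members in BL6 islets, where Irx1 and Irx2 gave larger differences than Gcg and Ttr. Irx1 averaged 2.39 ± 0.31 with pioglitazone and 1.45 ± 0.97 without it (SD, n = 4 each), a difference of 0.94 ± 0.33 with an unadjusted p of 0.00887 and an adjusted limma p of 0.296. Irx2 averaged 1.06 ± 0.29 with pioglitazone and 0.17 ± 0.63 without it (SD, n = 4 each), a difference of 0.90 ± 0.25 with an unadjusted p of 0.00202 and an adjusted limma p of 0.178. The groups lay on different slides and overlapped for both genes, and 0.170% of all genes were called. The dimmer Irx2 probe differed by 0.90 (adjusted p = 0.484). Without BL6 high-fat mouse 1 the differences were 0.50 for Irx1, 0.64 for Irx2 and 0.28 for the dimmer Irx2 probe. Gcg and Ttr differed by 0.03 and -0.04 in the same comparison, with 95% intervals from -0.25 to 0.31 and from -0.39 to 0.32.

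In BLKS islets the same comparison gave -0.22 for Irx1, -0.22 for Irx2, -0.01 for Gcg and -0.01 for Ttr, and 0.00435% of all genes were called. The strain difference in the pioglitazone effect was -1.16 ± 0.46 for Irx1, with an unadjusted p of 0.0203 and an adjusted p of 0.537. For Irx2 it was -1.11 ± 0.36, with an unadjusted p of 0.00548 and an adjusted p of 0.378. Without BL6 high-fat mouse 1 the values were -0.72 and -0.86. Neither was called, and 0.0131% of all genes were.

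Against chow, BL6 islets on high-fat diet with pioglitazone had Irx1 levels that did not overlap, from 2.04 to 2.78 with pioglitazone and from 1.58 to 1.98 on chow, a separation that 3.33% of all genes showed in this direction. The difference of 0.61 ± 0.33 was not called (adjusted p = 0.372). Irx2 differed by 0.49 ± 0.25 (adjusted p = 0.361) and overlapped. In BLKS islets these differences were 0.08 and 0.20. The dimmer Irx2 probe gave -0.05 in BL6 and -0.15 in BLKS islets, neither of them called. Shares of all genes called were 0.0261% in BLKS and 0.305% in BL6 islets. The comparisons of diets within a strain share arrays, since the high-fat group enters both the diet and the pioglitazone comparison.

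BL6 high-fat mouse 1 had the lowest level of the 12 BL6 arrays for Irx1, for both Irx2 probes and for Ttr, and the lowest raw Gcg intensity of all 24 arrays. Its mean over 7 other alpha-cell genes was 1.84, against 1.98 to 2.47 in the other BL6 arrays, and its mean over 4 delta-cell genes was 2.64, against 2.96 to 3.67. Its mean over 14 beta-cell genes was 5.46, inside the range of 5.01 to 5.59 of the other BL6 arrays, and its acinar mean of 5.29 lay inside their range of -0.66 to 6.19. Its mean over 3 genes of PP and epsilon cells was 7.05, the highest of all 24 arrays, against 5.02 to 7.02 in the other BL6 arrays. The part of these values in the diet comparisons was not tested.

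**Figure D3:**
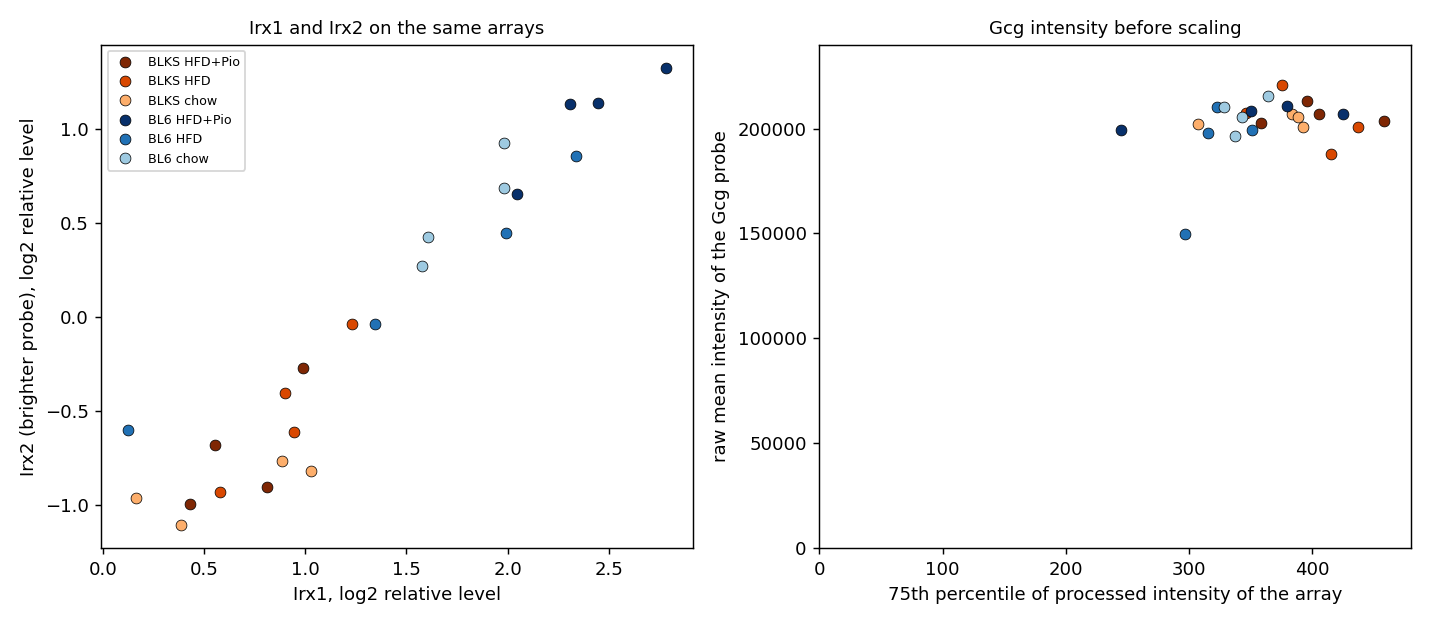
Left, Irx1 against Irx2 levels (log2) on the 24 arrays, coloured by group; right, raw mean intensity of the Gcg probe against the 75th percentile of processed intensity of its array. Irx1 and Irx2 run along 1 line through both strains (Pearson r 0.96), and Gcg stays between 149820 and 220715 units while the percentile runs from 245.0 to 458.7.

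Irx1 and Irx2 followed each other closely from mouse to mouse. Over the 24 arrays their levels had a Pearson r of 0.96 and a Spearman rho of 0.92. After each array was centred on its group the r was 0.88, and it was 0.77 over the 12 BLKS and 0.96 over the 12 BL6 arrays. Gcg and Ttr gave an r of 0.68, and 0.69 after centring. For Gcg the r was 0.44 with Irx1 and 0.48 with Irx2, and 0.23 and 0.32 after centring. All points share the scaling of their array, so these values are descriptions.

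The gene names whose levels were most like each member over the 24 arrays were taken among 18327 genes well above background on all of them. For Irx1 they were Irx2 (r 0.96), Neurog3 (0.93), which encodes the factor that starts endocrine development, Fbp1 (0.93), a gluconeogenic phosphatase, Serpind1 (0.91), which encodes heparin cofactor II, and Pdk4 (0.89), a pyruvate dehydrogenase kinase. For Irx2 they were Irx1, Pdk4 (0.94), Neurog3 (0.94), Oxtr (0.91), the oxytocin receptor, and Serpind1 (0.90). After centring within groups, the r with Irx1 was 0.82 for Neurog3, 0.80 for Fbp1, 0.71 for Serpind1 and 0.83 for Pdk4. With Irx2 it was 0.75 for Pdk4, 0.63 for Neurog3, 0.84 for Oxtr and 0.67 for Serpind1. Neurog3 gave 0.66 with Irx1 and 0.37 with Irx2 over the 12 BLKS arrays, and 0.91 and 0.88 over the 12 BL6 arrays. Neurog3 was 1.77 ± 0.17 lower in BLKS islets averaged over diets (adjusted p = 1.17e-08). In BL6 islets it differed by 1.00 ± 0.29 between pioglitazone and high-fat diet alone (adjusted p = 0.205), close in size to Irx1 and Irx2 and likewise not called. Its levels in BL6 islets on high-fat diet alone spread from 0.28 to 2.44. Neurog3 was picked for its likeness to Irx1 and Irx2 on these same arrays. Its similar differences follow from that choice and are not separate results.

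For Ttr the most alike were Tex22 (r 0.98), Gatsl2 (0.94), Loxl2 (0.94), Slc27a2 (0.94), a fatty acid transporter, and Tnr (0.94), a matrix protein. After centring within groups, Tex22 kept an r of 0.90 while the other 4 lay between 0.58 and 0.72. For Gcg they were Ins1 (0.90), Iapp (0.89), Ins2 (0.87), Zfp628 (0.87) and Chga (0.87). Ins1 and Ins2 encode insulins, Iapp amylin and Chga a granule protein, none of them particular to alpha cells. Ins1, Ins2 and Chga had an SD between 0.07 and 0.09 before scaling, less than the 0.20 of the percentile, as Gcg did.

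Beyond the members, 10 other alpha-cell enriched genes were listed and 7 were tested, the others being Wnk3, Peg10 and Loxl4. Averaged over diets, 6 were called lower and 1 higher in BLKS islets, against 35.4% lower and 29.5% higher of all genes, with a median of -0.57, against -0.06 for all genes. Those lower included Dpp4 at -1.60 ± 0.06, the peptidase that cleaves incretins, the ETS factor Etv1 at -0.89 ± 0.09 and the amino acid transporter Slc38a5 at -0.80 ± 0.18. Fap, Gc and Slc7a2 were lower by smaller amounts. Tm4sf4, a membrane protein gene, was higher at 0.32 ± 0.07 (adjusted p = 0.00069), opposite to Irx1, Irx2 and Ttr. The mean level of the 7 genes ran from 1.45 to 1.75 in BLKS arrays and from 1.84 to 2.47 in BL6 arrays, which do not overlap.

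In BL6 islets, pioglitazone against high-fat diet alone called none of the 7 genes, whose median was 0.12, against -0.01 for all genes. Slc38a5 differed by 0.57 ± 0.31 (adjusted p = 0.543) and Gc, the vitamin D binding protein gene, by -0.49 ± 0.19 (adjusted p = 0.373). In BLKS islets none of the 7 was called either.

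**Figure D4:**
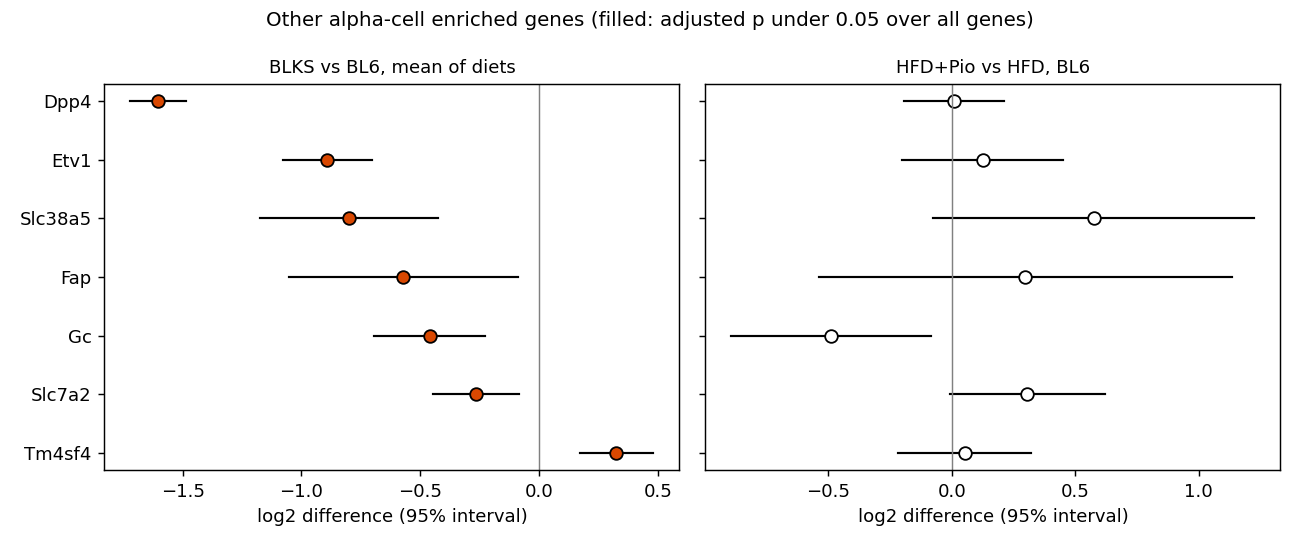
Log2 difference with 95% interval of the 7 other alpha-cell genes tested, for BLKS against BL6 averaged over diets and for HFD+Pio against HFD in BL6; filled points were called. The strain panel shows 6 genes below 0 and Tm4sf4 above it, and the pioglitazone panel shows no called gene, with Slc38a5 farthest right at 0.57.

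Of 16 genes that process glucagon, regulate Gcg or receive its peptides, 10 were called lower and 4 higher in BLKS islets averaged over diets, against 35.4% and 29.5% of all genes, with a median of -0.26. Dpp4 is in this list too. Lower were the islet factors Rfx6 at -1.60 ± 0.08, Foxa2 at -1.43 ± 0.08 and Isl1 at -0.87 ± 0.09. Both Foxa2 probes gave this result (-1.44 by the other). Higher were the islet factors Neurod1 at 0.61 ± 0.08 and Pax6 at 0.57 ± 0.10, and Foxa1, a relative of Foxa2, whose probe was well above background on 12 BLKS and 1 BL6 arrays, so that no size is given. Pcsk2, the convertase that releases glucagon from its prohormone, was lower at -0.28 ± 0.07. The scaling moved the median of all genes and the sign of the Gcg difference. Its part in this and other small differences of listed genes was not tested. Gcgr, the glucagon receptor, differed by -0.10 ± 0.08 and was not called (adjusted p = 0.265). Glp1r, the receptor of the other main product of Gcg, was -1.37 by its brighter probe and -0.02 by a second (adjusted p = 0.868).

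Among the other Iroquois genes, Irx3 was higher in BLKS islets by 2.31 ± 0.19 (adjusted p = 9.92e-10), opposite to Irx1 and Irx2, and was well above background on 12 BLKS and 10 BL6 arrays. Irx4, which lies in the same cluster as Irx1 and Irx2, differed by -0.18 ± 0.14 (adjusted p = 0.265), and Irx5 and Irx6 were not tested because their probes were dim. Around the Irx1 and Irx2 probes, within 2 Mb on either side, 45 names were tested. Of these, 32 were called between the strains averaged over diets, against 64.9% of all genes. In BLKS islets 24 of the 45 were called lower, against 35.4% of all genes. Irx1 and Irx2 are among these names, and some names come from the same stretch of the chromosome, so they are not separate results. The neighbourhood as a whole held many strain differences, as did the array. The BLKS sequence at the probes is not in the files, and its part in any strain difference was not tested.

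**Figure D5:**
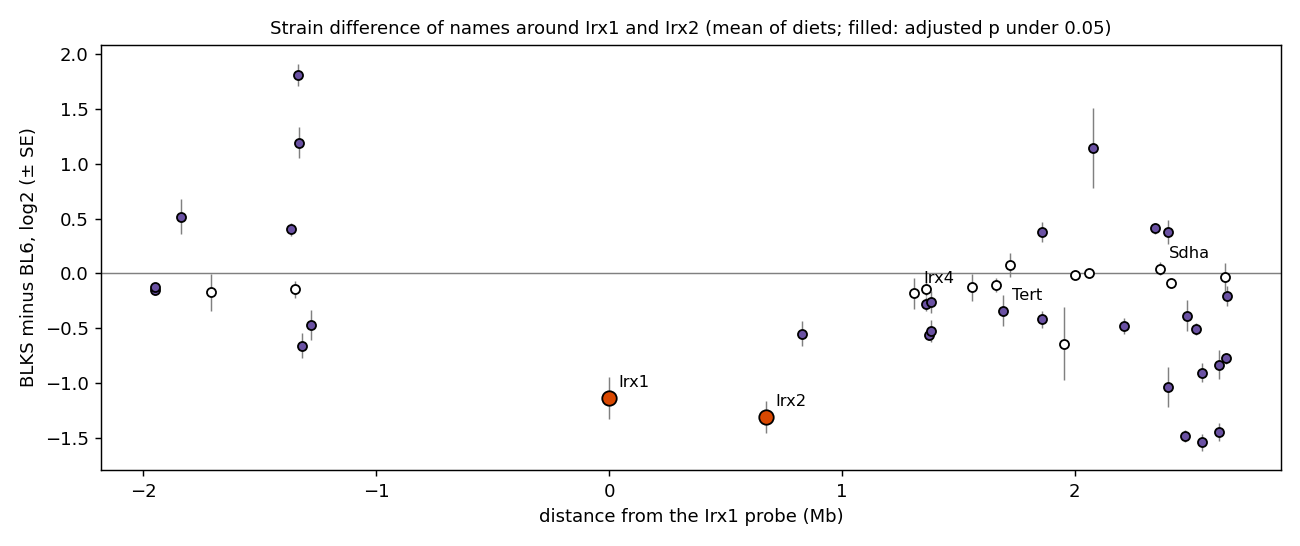
Strain difference averaged over diets (BLKS minus BL6, log2, with SE) of the names within 2 Mb of the Irx1 and Irx2 probes, against distance from the Irx1 probe; filled points were called. Irx1 and Irx2 are the orange points at -1.14 and -1.31, Irx4 is open at -0.18, and called names of either sign lie on both sides.

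Of 9 partners of Ttr in thyroid hormone and retinol handling, 8 were tested, and 3 were called higher and 2 lower in BLKS islets averaged over diets, with a median of 0.06. This count is close to the share of all genes called, 64.9%. Dio1, a deiodinase that activates thyroid hormone, was lower at -1.18 ± 0.07, as was the receptor Thrb at -0.32 ± 0.06. Rbp4, the retinol-binding protein that transthyretin carries in blood, was higher at 0.32 ± 0.08, opposite to Ttr. Rbp4 is also a mark of delta cells in the mouse islet.

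Markers of other cells were counted the same way, beside 35.4% of all genes called lower and 29.5% called higher. Averaged over diets, 8 of 14 beta-cell genes were called lower and 1 higher in BLKS islets (median -0.21), a share called close to the 64.9% of all genes. Of 4 delta-cell genes, 2 were higher and 0 lower (median 0.21), and of 7 duct genes 5 were higher and 0 lower (median 2.13). The list mean of the duct genes ran from -1.23 to -0.31 in BLKS arrays and from -3.20 to -1.59 in BL6 arrays, with no overlap. Acinar means ran from -2.92 to 6.33 in BLKS arrays and from -0.66 to 6.19 in BL6 arrays, and lymphocyte means from -3.68 to 1.64 and from -3.64 to 2.88. With the acinar or the lymphocyte mean as a covariate, Irx1, Irx2 and Ttr were called lower in BLKS islets on the same diets as without it. Both means overlapped widely between the strains, so these covariates could take up little of a strain difference. The part of duct genes was not tested.

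No slide held both strains on 1 diet, so slide and strain cannot be told apart within a diet. Slide and treatment cannot be told apart either for high-fat diet with pioglitazone against high-fat diet in BL6 islets, for BLKS islets on high-fat diet against those on chow, for high-fat diet with pioglitazone against chow in both strains, or for the strain differences in these effects. Both groups shared a slide only for the high-fat diet in BL6 islets and for pioglitazone in BLKS islets. The slide that held 3 BLKS chow and 3 BL6 pioglitazone arrays gave a BLKS minus BL6 difference of -0.79 for Ttr, -1.90 for Irx1, -2.005 for Irx2 and -0.07 for Gcg, between groups that also differ in diet. Ttr, Irx1 and Irx2 did not overlap there and Gcg did, with 3 arrays on each side. The share of all genes that separate between these arrays was not counted. With slide as a random block the consensus correlation was -0.01, and the 3 genes kept their calls. Most groups lay wholly on a single slide, so neither that correlation nor the kept calls could separate slide from strain.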

How the data were processed

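Total RNA of islets from 24 mice was amplified, labelled with Cy3 and hybridised to single-colour Agilent arrays, per the labels' protocols. Spot intensities were read with Agilent Feature Extraction 10.7.3.1 per the file headers, and the deposited processed intensity is background-subtracted and not normalized between arrays. The deposited detection and outlier flags (other values) are those of the same software. The authors' deposited value table holds a linear ratio, the processed intensity over the median of its array, and was used as an alternative. Of its value columns, 0 were left unmapped.

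Groups came from the sample titles. Control spots and flagged outliers were left out, spots of a probe were averaged as log2 intensity, and the 75th percentile of each array was subtracted. Probes well above background on at least 4 of 24 arrays were kept (32759), and the brightest kept probe stood for a gene name (22975 genes). With limma 3.58.1 in R 4.3.3, 1 model with 6 group means took in the 24 arrays (lmFit, then eBayes), and p-values were adjusted by Benjamini and Hochberg over all genes. The fit was tested on simulated data. For arrays, the number of mice limits the precision.

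The genes named are the members, up to 4 called genes of a list in a comparison, 6 defining islet genes and the 5 names most like each member. The second probes and the other genes named from lists were added with their values seen. The members and gene lists were chosen with earlier results of these data known, and some listed alpha-cell genes are not reported here. Alternatives were normexp with quantile normalization, quantile normalization, values relative to 12 endocrine genes, no scaling, 2 filters, the mean of probes, the authors' table, a block for slide or for mouse number, a fit to only those groups being compared, acinar or lymphocyte covariates, leaving out the 2 arrays of the second scan day and leaving out each mouse. No scaling, the second scan day and the dimmer Irx2 probe without BL6 high-fat mouse 1 were added after seeing the data.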

Additional observations from a re-analysis of the deposited data

Results flagged for a closer look

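The dimmer Irx2 probe in BL6 islets on high-fat diet with pioglitazone had 1 array set apart from the others of its group. Mouse 2 was the highest of the 4 at -1.82, while the others lay at -2.56, -2.47 and -2.45. Its gap to the nearest array, as a share of the range of the group, exceeded the 95% critical value of Dixon's test for 4 samples. The brighter Irx2 probe was also highest in that mouse, at 1.33, without standing apart. Chance gives about 1 such array in 20 groups, and 36 groups of 4 arrays were examined over the 6 probes, of which this was the only one.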

How the results depend on the processing

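The count of members called kept to within 1.5 times its value in every comparison except BLKS against BL6 on high-fat diet. There 2 were called, and 1 (Ttr) was called with the authors' value table, the mean of probes, no filter, no scaling between arrays, only the groups compared, values relative to endocrine genes and the replicate block. With each mouse left out the count ran from 1 to 3. The cause was not tested. Irx2 on high-fat diet then missed the threshold, with adjusted p between 0.0512 and 0.594 over those 7 settings. The dimmer Irx2 probe turned its direction there (0.21) and was not called on any diet. Without BL6 mouse 1, a choice made after seeing the data, it gave -0.42 there. Irx1 passed on high-fat diet only without BL6 mouse 1, its lowest array. Gcg averaged over diets passed with the lymphocyte covariate (-0.17, adjusted p = 0.0495) and without 1 mouse in 5 of 24 cases, with differences from -0.20 to -0.12 over those 24, and it was above 0, uncalled, with no scaling (0.04), normexp with quantile normalization (0.03) and, by less than 0.01, quantile normalization alone. Unfiltered, Pou3f4 was called at -0.46 (adjusted p = 0.0273) from a probe that was never well above background. In diet and pioglitazone comparisons 0 members were called in any setting. Differences not called in either fit were counted as unchanged whatever their sign.

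Calls over all genes moved more in the diet comparisons. For pioglitazone against high-fat diet alone in BL6 islets 39 genes were called, and between 0 and 78 in other settings. For high-fat diet against chow 10 were called in BL6 (0 to 19) and 17 in BLKS (0 to 66). These ranges take in the fits with each mouse left out. Mouse numbers do not pair the samples, which are different animals: same-numbered arrays of different groups had a median correlation of deviations of 0.0448 over 60 pairs, and others 0.033 over 180. The replicate block left Irx2 on high-fat diet at an adjusted p of 0.0529. Slide as a fixed block could be fitted only for high-fat diet against chow in BL6 and for pioglitazone in BLKS islets. Only the groups compared gives no other fit for the mean of diets.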

Other observations

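Genes of other islet cells that the report has not described also differed between the strains, averaged over diets. Of 3 genes of PP and epsilon cells, 2 were called lower in BLKS islets and 0 higher, against 35.4% and 29.5% of all genes. Ghrl, the ghrelin gene, was lower at -2.09 ± 0.46 (SE; limma, adjusted p = 0.00045) and Pyy, the peptide YY gene, at -0.51 ± 0.17 (limma, adjusted p = 0.0107). Ppy, the pancreatic polypeptide gene, differed by 0.12 ± 0.27 and was not called (limma, adjusted p = 0.715). Of 9 macrophage genes, 7 were called lower and 0 higher, with a median of -0.81, against -0.06 for all genes. They included the complement genes C1qa, C1qb and C1qc, at -0.58, -0.81 and -1.28. The macrophage mean ran from 0.17 to 1.29 in BLKS arrays and from 0.61 to 2.70 in BL6 arrays, which overlap.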
